A study of Mus musculus with 6 samples.

Results

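The Notch genes described here are 10 genes of the pathway, of 18193 that the array names through a probe set with 1 gene symbol. They are the 4 receptors Notch1, Notch2, Notch3 and Notch4, the ligands Jag1, Jag2 and Dll1, the target genes Hes1 and Hey1, and Mfng, an enzyme that modifies the receptors. They were chosen by name, and their 18 probe sets were read from the whole table. For each gene the brightest probe set, by mean over all arrays, gives the main value and the others serve as a check. All 10 passed the filter on low signals, as did 13717 genes in all.

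Wild-type embryos of the mouse strain FVB/N, of unknown sex and with no transgene or treatment named in the labels, were taken at embryonic day 13, which is Theiler stage 21, and the tissue was their bladder neck and urethra. Trypsin was used to part the epithelium from the mesenchyme around it, and 3 arrays were hybridised per layer, called epithelium 1, 2, 5 and mesenchyme 1, 2, 3 after the sample titles. Where the bladder was cut relative to the ureters is given differently in different texts of the labels. The question they set is how gene expression differs between the layers. No array held a pool, per the labels, but they do not say that each came from its own embryo, so the p-values measure the spread between these samples, which may be technical.

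Notch receptors are membrane proteins that are cut when a Jagged or Delta ligand on a neighbouring cell binds them. The released intracellular domain enters the nucleus and, with the DNA-binding protein Rbpj, activates genes of the Hes and Hey families, which encode repressors of the basic helix-loop-helix class. Fringe enzymes such as Mfng add sugars to the receptors and change how they respond to Jagged and Delta ligands. The pathway is known for choosing between cell fates in epithelia and for building blood vessels, where Notch4 is known mainly from endothelium and Notch3 from the mural cells around it.

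The layers were told apart by their markers, but mesenchyme 1 differed from the other mesenchymal arrays. Summed over 9 epithelial markers, the normalized signal lay between 216242 and 255123 on epithelial arrays and was 87084 on mesenchyme 1, 15318 on mesenchyme 2 and 2975 on mesenchyme 3. All 9 epithelial markers were higher on every epithelial array than on any mesenchymal array, and 2 of them passed the threshold with all 6 arrays and 9 without mesenchyme 1. The 9 mesenchymal markers summed to 32798 to 51667 in epithelium and 218934 to 257114 in mesenchyme, and 6 of the 9 were called. The layers were apart for 7 of them and overlapped for Twist1 and Dcn. Twist1 read 467 on mesenchyme 1, within its epithelial range of 333 to 724, and 3389 and 4294 on mesenchyme 2 and 3. Markers of other organs, such as liver, summed to 335191 on mesenchyme 1 and to 11068 at most on any other array. Krt10, at 74373 on mesenchyme 1 and 10051 at most elsewhere, made up most of that sum on the other arrays. The main value of each of the 10 genes is therefore given with and without mesenchyme 1. Median deposited signals were 126 to 254 per array. Precision is limited by how few arrays there are.

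Values below are quantile-normalized signal units, and a difference is epithelium minus mesenchyme on the log2(signal + 16) scale with limma's standard error (n = 3 arrays per layer), so that positive means an excess in epithelium. The offset understates the change of dim genes. A gene passed when its limma p, adjusted by Benjamini-Hochberg over all genes tested, was under 0.05. With all 6 arrays 4 of the 10 genes passed, where 5.98% of all genes did, and without mesenchyme 1 5 of the 10 passed, where 14.5% did. The genes were chosen with earlier results of these arrays known, so these shares describe the 10 and nothing more. Both targets moved, in opposite directions: Hes1 was 8.45-fold higher in epithelium and Hey1 2.62-fold higher in mesenchyme. Mfng and Notch4 were higher in mesenchyme, by 14.4-fold and 7.38-fold, and Jag2 was 3.58-fold higher in epithelium without mesenchyme 1. For Notch2, Notch3, Jag1 and Dll1 the arrays of the layers overlapped. The median difference of the 10 was 0.00 against 0.12 over all genes, and the values given do not subtract that shift.

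**Figure D1:**
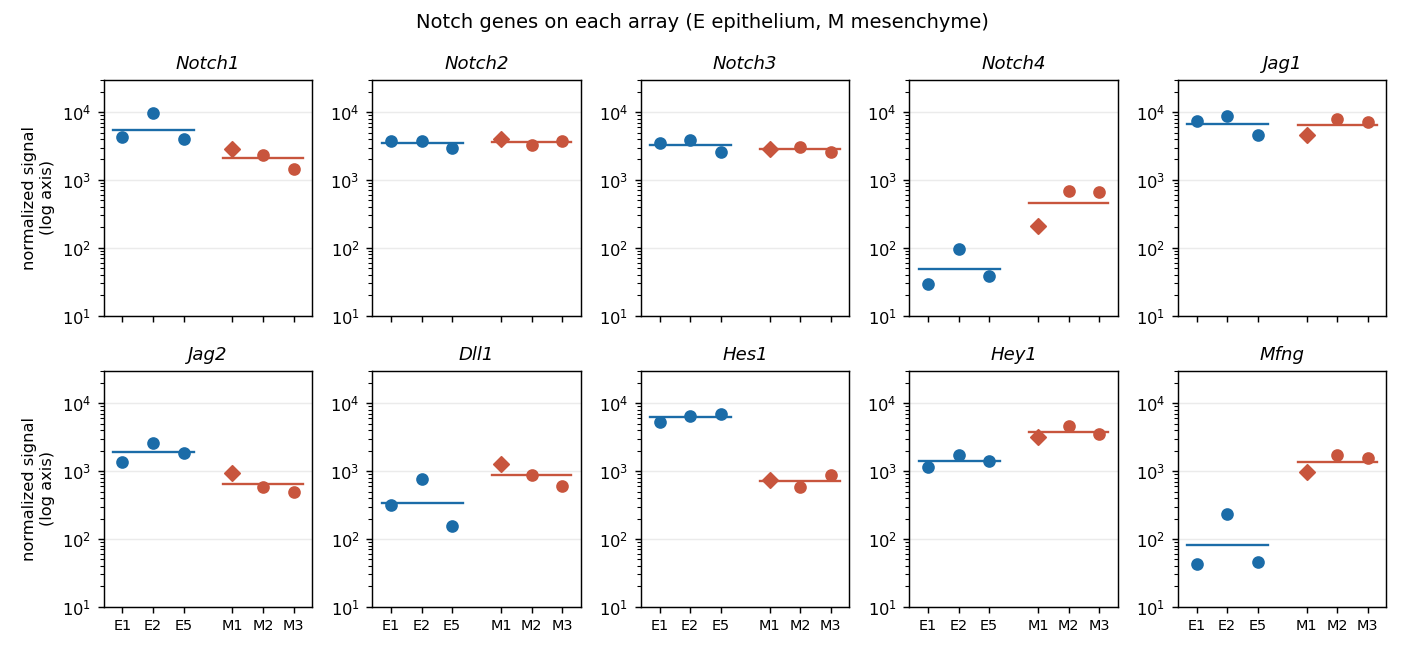
Normalized signal of the 10 Notch genes on each array (log axis), with epithelium in blue (E1, E2, E5) and mesenchyme in red (M1, M2, M3, a diamond for M1). Points are single arrays and lines are layer means on the log2(signal + 16) scale. Hes1 lies between 5335 and 6855 in epithelium and between 578 and 884 in mesenchyme, while Mfng and Notch4 lie the other way.

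Promoter sequence, from RefSeq (GRCm38.p6), was at hand for 7 of the 10 genes, from 250 bases before the gene's start to 50 after it; Hes1, Hey1 and Mfng have no entry. The 3 shown are those of Jag2 and Notch1, which had higher signals on every epithelial array, and of Notch4, which passed in the other direction. Capitals mark matches on either strand to GGGCGG, the GC box bound by Sp factors, and to CACGCG, a site class known for Hes and Hey proteins. No match of one motif overlapped a match of another in these windows.
Jag2 promoter, chr12:112929446-112929745, minus strand: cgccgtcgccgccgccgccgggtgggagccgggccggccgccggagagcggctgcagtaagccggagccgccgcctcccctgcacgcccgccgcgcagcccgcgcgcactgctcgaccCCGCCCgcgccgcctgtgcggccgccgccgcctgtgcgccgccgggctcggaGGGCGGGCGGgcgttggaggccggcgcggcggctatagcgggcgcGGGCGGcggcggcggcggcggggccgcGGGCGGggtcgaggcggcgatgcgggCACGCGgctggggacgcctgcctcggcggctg
Notch1 promoter, chr2:26503773-26504072, minus strand: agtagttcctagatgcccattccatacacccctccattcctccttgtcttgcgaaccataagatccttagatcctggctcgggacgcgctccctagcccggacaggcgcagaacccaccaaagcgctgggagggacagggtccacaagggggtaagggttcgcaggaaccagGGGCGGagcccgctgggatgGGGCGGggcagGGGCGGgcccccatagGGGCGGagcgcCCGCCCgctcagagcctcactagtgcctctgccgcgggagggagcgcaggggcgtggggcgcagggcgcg
Notch4 promoter, chr17:34564045-34564344, plus strand: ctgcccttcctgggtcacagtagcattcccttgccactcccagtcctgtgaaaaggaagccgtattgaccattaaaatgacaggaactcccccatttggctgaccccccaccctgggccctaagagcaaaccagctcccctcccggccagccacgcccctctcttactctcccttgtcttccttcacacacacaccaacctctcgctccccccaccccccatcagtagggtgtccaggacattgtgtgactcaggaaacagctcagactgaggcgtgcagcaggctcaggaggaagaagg
The Jag2 window is 86.0% G and C with 5 GC boxes and 1 CACGCG, and the Notch1 window is 68.3% G and C with 5 GC boxes and no CACGCG. The Notch4 window, 58.3% G and C, holds neither. GC boxes were found in 35.7% and CACGCG in 9.27% of all 32851 promoter windows. Among the other windows, Notch2 holds 7 GC boxes and Notch3 holds 4, while Jag1 and both Dll1 windows hold 0. CACGCG occurs 2 times in Jag1 and 1 time in Notch2 and in 1 of the Dll1 windows. The Rbpj core GTGGGAA, present in 6.38% of all windows, was in 0 of the 8 windows of these genes. A match is a description of letters and not evidence of binding.

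Among the receptors, Notch1, a receptor widely studied in epithelia and vessels, read 4240, 9666 and 4073 on epithelium 1, 2 and 5 and 2875, 2305 and 1433 on mesenchyme 1, 2 and 3. Every epithelial array lay above every mesenchymal one, and epithelium 2 was the highest. The difference of 1.37 ± 0.441 did not pass in limma (adjusted p = 0.139), nor did that of 1.61 without mesenchyme 1 (adjusted p = 0.0535). The 95% interval, which is not adjusted for the number of genes, ran from 0.34 to 2.41 with all arrays. A second, dimmer Notch1 probe set read 194 to 298 in epithelium and 146 to 205 in mesenchyme, a difference of 0.52 with overlapping layers.

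Notch2, a receptor widely expressed in developing organs, read 3693, 3754 and 2978 in epithelium and 4024, 3222 and 3695 in mesenchyme. The layers overlapped on this receptor, and its difference was -0.07 (95% interval -0.68 to 0.54, adjusted p = 0.900 in limma). Without mesenchyme 1 the difference was 0.00 and the interval -0.56 to 0.57.

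Notch3 read 3510, 3902 and 2570 in epithelium and 2826, 3068 and 2584 in mesenchyme, again with overlapping layers. The difference was 0.22 (95% interval -0.45 to 0.88, adjusted p = 0.709 in limma) and the same to 2 decimals without mesenchyme 1. This value comes from a probe set of the _s_at kind, which can match several transcripts. The unique Notch3 set was dim, at 110 to 297 in epithelium and 9.64 to 99.8 in mesenchyme, so that its layers did not overlap. Its difference of 1.78 did not pass (adjusted p = 0.347 in limma over all probe sets).

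Notch4 read 28.8, 95.7 and 38.7 in epithelium and 212, 698 and 660 in mesenchyme. The layers did not overlap, and mesenchyme 1 was the lowest of its layer. The difference was -2.88 ± 0.633, or 7.38-fold (adjusted p = 0.0430 in limma), and it grew to -3.46, or 11.0-fold, without mesenchyme 1 (adjusted p = 0.00525). All 3 epithelial values lay below 96.3, the signal at which the filter on low values stands, so the fold rests on dim values. The call ended when any array other than mesenchyme 1 was left out (adjusted p = 0.0628 to 0.186), with differences of -2.58 to -3.26. It also ended with the mean of the gene's probe sets (-1.12, adjusted p = 0.372) and without the filter (adjusted p = 0.0570). Of the other Notch4 probe sets, one read 24.6 to 40.4 in epithelium and 58.1 to 98.6 in mesenchyme (-0.98), and the remaining set had overlapping layers and a difference of 0.65.

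Among the ligands, Jag1 and Jag2 belong to the Jagged (Serrate) type and Dll1 to the Delta type. Jag1 read 7467, 8886 and 4647 in epithelium and 4628, 8019 and 7136 in mesenchyme, so that the layers overlapped. The difference was 0.07 (95% interval -0.73 to 0.87, adjusted p = 0.924 in limma) and -0.16 without mesenchyme 1 (adjusted p = 0.803). A dimmer Jag1 set read 706 to 921 in epithelium and 169, 552 and 540 in mesenchyme. Its layers did not overlap, and its difference of 1.11, or 0.60 without mesenchyme 1, did not pass (adjusted p = 0.434 and 0.391 in limma over all probe sets). The remaining set was dimmer still, with overlapping layers.

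Jag2 read 1361, 2641 and 1862 in epithelium and 939, 577 and 499 in mesenchyme. The layers did not overlap, and mesenchyme 1 was the highest of its layer. The difference of 1.52 ± 0.398, or 2.87-fold, missed the threshold with all 6 arrays (adjusted p = 0.0761 in limma) and passed without mesenchyme 1 (1.84, or 3.58-fold, adjusted p = 0.0117). The other Jag2 probe set read 854, 563 and 1159 in epithelium and 79.8, 189 and 234 in mesenchyme. There mesenchyme 1 was the lowest of its layer, and the difference was 2.30, or 1.94 without mesenchyme 1. With the mean of both sets Jag2 passed on all 6 arrays (1.91, adjusted p = 0.0118).

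Dll1 read 315, 778 and 155 in epithelium and 1274, 868 and 603 in mesenchyme. Epithelium 2 lay above mesenchyme 3, so the layers overlapped. The difference was -1.32 ± 0.608 (95% interval -2.75 to 0.10, adjusted p = 0.290 in limma) and -1.08 without mesenchyme 1 (adjusted p = 0.346). The interval leaves room for a several-fold excess in mesenchyme as well as for none.

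**Figure D2:**
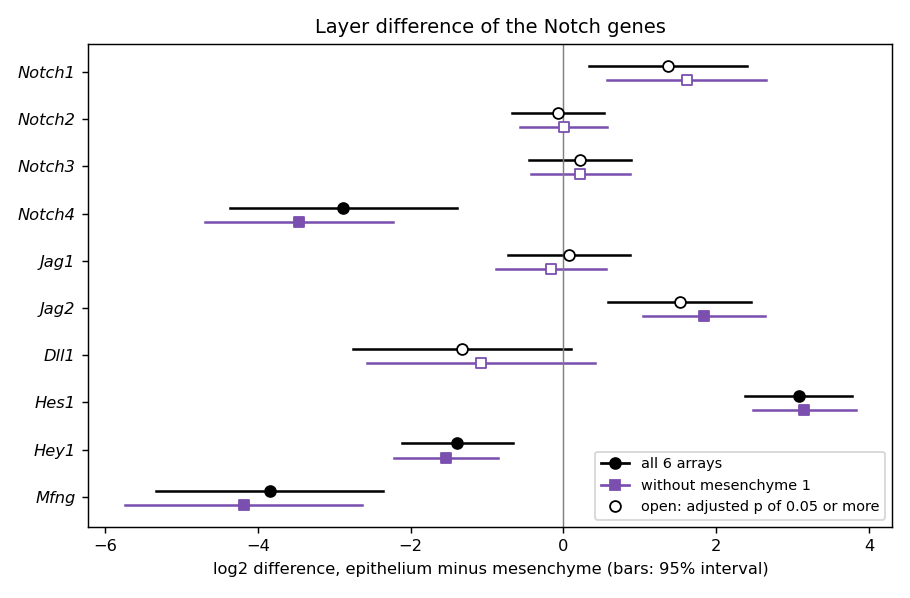
Log2 difference between the layers, epithelium minus mesenchyme, for each Notch gene with all 6 arrays (black circles) and without mesenchyme 1 (purple squares). Bars are 95% intervals and open symbols mark an adjusted p of 0.05 or more. Hes1 stands to the right at 3.08 and 3.15, Mfng, Notch4 and Hey1 to the left, and Jag2 is open with all 6 arrays and filled without mesenchyme 1.

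Of the target genes, Hes1, a repressor known for keeping progenitor cells from differentiating, read 5335, 6508 and 6855 in epithelium and 728, 578 and 884 in mesenchyme. The lowest epithelial array was 6.04-fold above the highest mesenchymal one. Hes1 was higher in epithelium by 3.08 ± 0.299, or 8.45-fold (adjusted p = 0.00394 in limma), and by 3.15, or 8.89-fold, without mesenchyme 1 (adjusted p = 0.00115). It kept its call when any single array was left out, with adjusted p of at most 0.0317. Mesenchyme 1, whose epithelial markers summed to 87084 against 15318 and 2975, read between mesenchyme 2 and 3 in Hes1.

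Hey1, a repressor of the Hairy-related kind known from vessels and heart, read 1149, 1758 and 1411 in epithelium and 3183, 4615 and 3580.0 in mesenchyme. The layers did not overlap. Hey1 was higher in mesenchyme by 2.62-fold (-1.39 ± 0.309, adjusted p = 0.0444 in limma) and by 2.90-fold without mesenchyme 1 (-1.54, adjusted p = 0.0123). Leaving out any other array ended the call (adjusted p = 0.0582 to 0.211), with differences of -1.24 to -1.51, as did median centring (-1.30, adjusted p = 0.225) and no filter (adjusted p = 0.0503).

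Mfng, the manic fringe glycosyltransferase, read 42.3, 233 and 46.5 in epithelium and 956, 1750.2 and 1550.3 in mesenchyme, with epithelium 2 the highest of its layer. Epithelium 1 and 5 lay below the filter's signal of 96.3, so the size of the fold rests on dim values, and with other offsets the difference ran from -3.24 to -4.14. Mfng was higher in mesenchyme by 14.4-fold (-3.85 ± 0.634, adjusted p = 0.0163 in limma) and by 18.2-fold without mesenchyme 1 (-4.19, adjusted p = 0.00624). The call ended without epithelium 1 (adjusted p = 0.0868), epithelium 5 (0.0763), mesenchyme 2 (0.0810) or mesenchyme 3 (0.0626), with differences of -3.47 to -3.73.

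Across the 10 genes, the arrays of the layers did not overlap for 6, namely Notch1, Notch4, Jag2, Hes1, Hey1 and Mfng, where this was so for 28.8% of all genes. Of these 6, Hes1, Jag2 and Notch1 were higher in epithelium and the others in mesenchyme. That the genes of a direction share their higher arrays follows from this sorting and is no further result. Notch1 did not pass. Jag2 passed only without mesenchyme 1 or, among the other settings run, with the mean of its probe sets. For the receptors Notch2 and Notch3 and the ligands Jag1 and Dll1 the layers overlapped.

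The mesenchyme holds vessels, and the levels of endothelial markers were read beside the genes higher there. In bulk tissue, fewer cells of a type and less RNA per cell cannot be told apart. Of 11 endothelial markers listed, 10 were tested, and their summed signal was 1355, 3234 and 1315 on epithelium 1, 2 and 5 and 27424, 19887 and 23232 on mesenchyme 1, 2 and 3. All 10 were higher on every mesenchymal array, and 6 were called, among them Sox17 (-5.10), Cdh5 (-4.52), Kdr (-4.03) and Tek (-3.43). Mfng, Notch4 and Hey1 were each highest on epithelium 2 within the epithelium, as was the endothelial sum. So were the others of the 10 Notch genes except Hes1, and the epithelial (255123), mesenchymal (51667) and neuronal (980) sums. The remaining marker sums were highest on epithelium 5. On mesenchyme 1, Mfng, Notch4 and Hey1 were the lowest of their layer. The endothelial sum was the highest there, but the markers differed: Pecam1 (322), Emcn (472), Erg (680.2) and Robo4 (315) were lowest on mesenchyme 1 as well, while Cdh5, Tek, Esam, Sox17 and Sox18 were highest there. Mural and smooth muscle markers summed to 6982 to 13309 in epithelium and 34184 to 59823 in mesenchyme. Of the 7, 2 were called, Abcc9 (-3.39) and Acta2 (-2.33). Acta2 made up most of that sum, at 20284 to 38894 in mesenchyme. Pdgfrb was not called with all 6 arrays (-2.24) but was without mesenchyme 1 (-3.03). Only Rgs5 of the 7 had overlapping layers (-0.99). Notch3 had a difference of 0.22. Neuronal markers summed to 502 to 980 in epithelium and 24336 to 34269 in mesenchyme, with 4 of 5 called. Their part in the differences of Mfng, Notch4, Hey1 and Dll1 was not tested.

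On the epithelial side, Notch1 and Jag2 ranked the mesenchymal arrays as the sum of the epithelial markers did, with mesenchyme 1 highest and mesenchyme 3 lowest. The marker sum spanned 2975 to 87084 there, Notch1 1433 to 2875 and Jag2 499 to 939. The other Notch1 probe set was highest on mesenchyme 2 (205), with 177 on mesenchyme 1 and 146 on mesenchyme 3. The other Jag2 probe set ranked the arrays the opposite way to the marker sum, and Hes1 was highest on mesenchyme 3. The part of epithelial RNA in the mesenchymal readings was not tested.

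**Figure D3:**
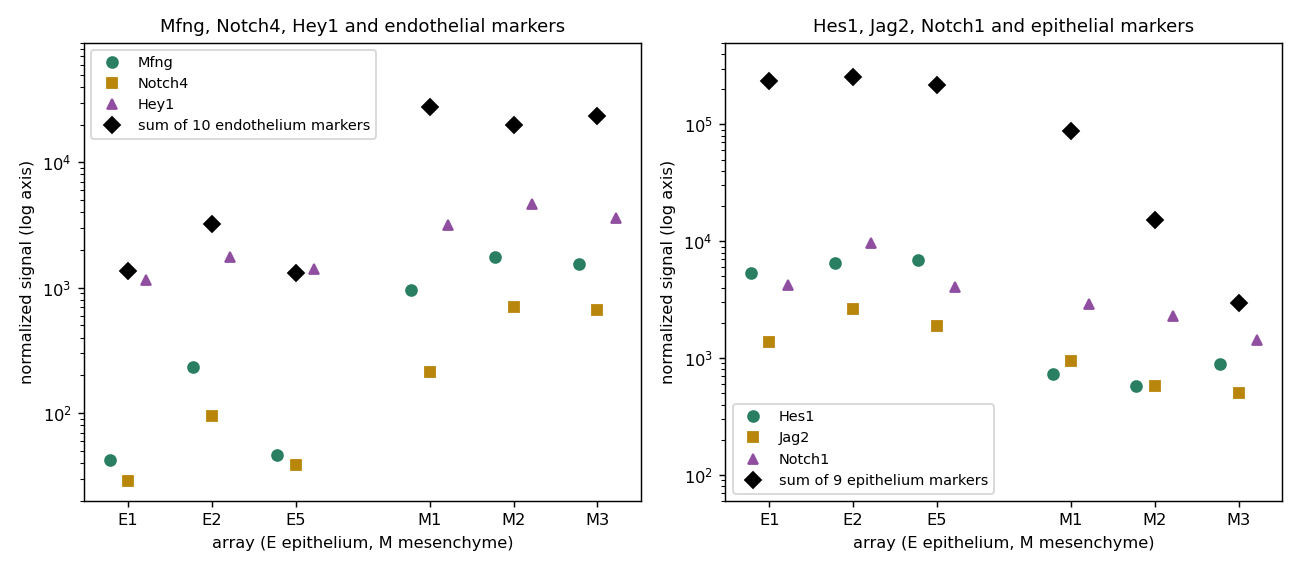
Normalized signal (log axis) by array, with Mfng, Notch4 and Hey1 beside the sum of 10 endothelial markers (left) and Hes1, Jag2 and Notch1 beside the sum of 9 epithelial markers (right). Points are single arrays, and the series are set slightly apart sideways. The endothelial sum is 1315 to 3234 in epithelium and 19887 to 27424 in mesenchyme, and the epithelial sum on mesenchyme 1 is 87084.

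Beyond the 10, 44 further genes of the pathway were listed, of which 34 were tested, 7 fell under the filter and 3 have no probe set with 1 gene symbol. Of the 34, 1 was higher in epithelium and 1 in mesenchyme, so 32 did not pass, where 1.95% and 4.03% of all genes passed in those directions. Their median difference was 0.00. Without mesenchyme 1, 1 was higher in epithelium and 2 in mesenchyme, beside 6.37% and 8.17% of all genes. With the mean of probe sets 3 passed, where 824 of 13717 genes did. The added gene was Dlk1, higher in mesenchyme (-2.99, adjusted p = 0.0410 in limma). On its brightest probe set Dlk1 had separate layers and a difference of -1.72 (adjusted p = 0.187 in limma).

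The gene higher in epithelium was Dlk2, a Delta-like membrane protein that lacks the receptor-binding domain of the Delta ligands. It read 964, 843 and 1290 in epithelium and 276, 381 and 353 in mesenchyme, a difference of 1.56 ± 0.343 (2.95-fold, adjusted p = 0.0435 in limma). Without mesenchyme 1 the value was 1.48 (adjusted p = 0.0164), and without any other array the call was lost. It was also lost without normalization, with median centring and without the filter on low signals (adjusted p = 0.0653 to 0.0779). Dlk2 is read from an _x_at set, which can match related transcripts.

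The gene higher in mesenchyme was Dtx1, deltex 1, a ubiquitin ligase that binds the Notch intracellular domain. It read 242, 375 and 355 in epithelium and 2083, 2966 and 2581 in mesenchyme, with a wide gap between the layers. The difference was -2.92 ± 0.335, or 7.58-fold (adjusted p = 0.00599 in limma), and -3.15 without mesenchyme 1 (adjusted p = 0.00124). The call held when any single array was left out, with adjusted p of at most 0.0442. Its relatives Dtx2, Dtx3 and Dtx4 did not pass, with differences of 0.62, -0.14 and 0.43.

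Neurl1a, a neuralized-type ligase of ligand uptake, read 385, 563 and 367 in epithelium and 1056, 1036 and 1051 in mesenchyme. Its difference was -1.25 (adjusted p = 0.0746 in limma), and it passed without mesenchyme 1 (-1.29, adjusted p = 0.0315) and without normalization (-1.45, adjusted p = 0.0325). With the mean of its probe sets the difference was -0.51 (adjusted p = 0.464).

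Of the 4 other Hes and Hey family genes and targets tested, 0 passed in limma, and 2, Heyl and Hes6, had an unadjusted p under 0.05. Hes6, a relative that is known to counter Hes1, read 3579 to 6531 in epithelium and 1826, 3060.4 and 3500.0 in mesenchyme, a difference of 0.92 (adjusted p = 0.233 in limma) with separate layers and the higher signals in epithelium. Heyl, a relative of Hey1 known from mural cells, read 246 to 258 in epithelium and 596, 640 and 437 in mesenchyme, a difference of -1.09 (adjusted p = 0.137 in limma). Hey2 read 71.4 to 130 and 158 to 192, a difference of -0.76 (adjusted p = 0.408). The layers of Heyl and Hey2 were apart in the direction of Hey1. Nrarp, a feedback inhibitor that Notch signalling induces, read 4700.0, 4543 and 5024 in epithelium and 5755, 3324 and 3160 in mesenchyme. Its layers overlapped through mesenchyme 1 (0.27, adjusted p = 0.660), and its difference was 0.56 without that array (adjusted p = 0.149). Hes5, at 15.2 to 209, fell under the filter and was not tested.

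Rbpj, the DNA-binding partner of the cleaved receptor, read 14009 to 15900 in epithelium and 14899 to 17629 in mesenchyme (-0.15, 95% interval -0.55 to 0.24, adjusted p = 0.654 in limma), with overlapping layers. All 8 tested proteases that cut the receptors, among them Adam10 and members of the gamma-secretase complex, had overlapping layers. Of them 0 passed in limma (0 with an unadjusted p under 0.05), with a median difference of 0.01. Over all genes 28.8% had layers apart and 5.98% passed, so few were to be found among 8. Dll4, the Delta ligand of arteries, read 223 to 270 in epithelium and 175, 341 and 381 in mesenchyme (-0.19, adjusted p = 0.838), and -0.53 without mesenchyme 1. Of the other fringe enzymes, Rfng had a difference of 0.29 (adjusted p = 0.739) with overlapping layers, and Lfng, at 5.68 to 177, fell under the filter.

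**Figure D4:**
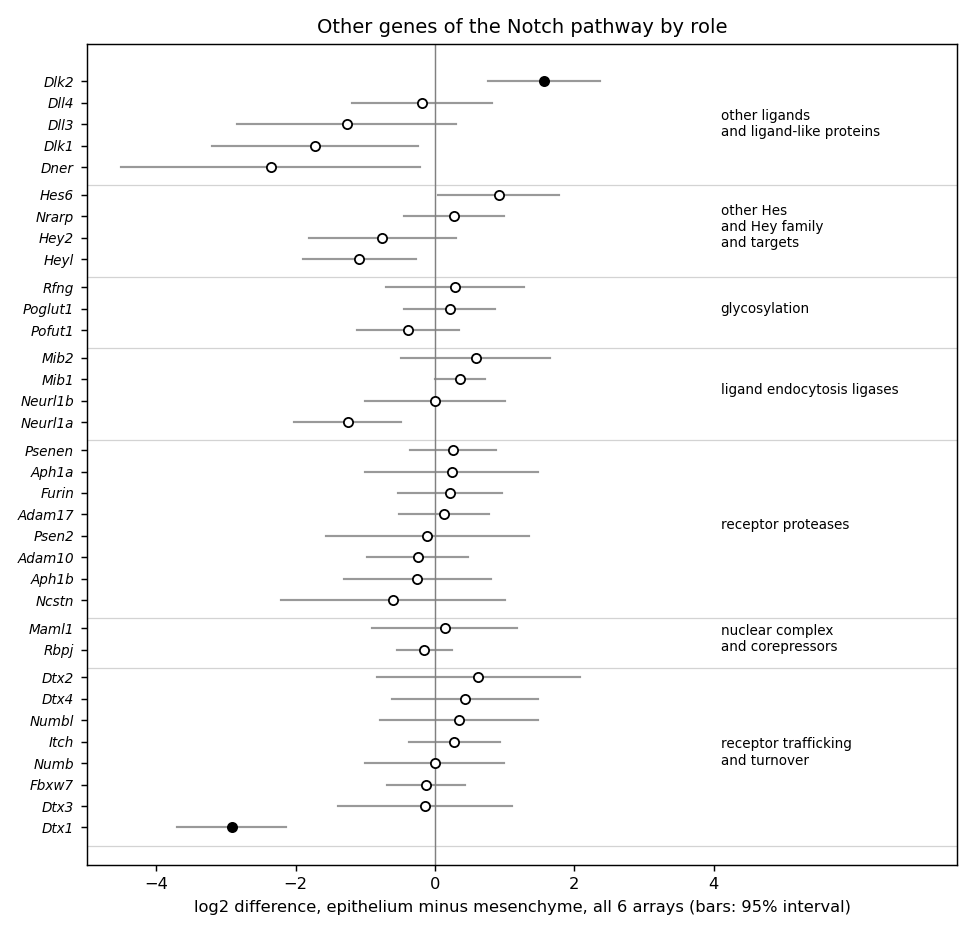
Log2 difference between the layers with all 6 arrays, epithelium minus mesenchyme, for the 34 tested genes of the pathway outside the 10, grouped by role, with 95% intervals. Filled points passed the threshold, which were Dlk2 at 1.56 and Dtx1 at -2.92.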

How the data were processed

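The deposited table holds 1 probe set intensity per array on a linear scale, made by the authors with GCOS per the submitters' processing notes; how it was set is not stated in any source here. Trimmed by 2% at either end, the mean of every array is 1500, so the deposited values carry a common scaling. There are no detection calls, so dim probe sets have no bound.

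Of 45101 probe sets, 64 controls were left out and 34945 of the rest name 1 gene. Values were taken as log2(signal + 16) and quantile normalized. Probe sets above the 40th percentile of mean log2 value were kept, and the brightest one represented each gene. The test was limma's (version 3.58.1, R 4.3.3), a linear model of layer on all 6 arrays with eBayes and a variance trend and no covariate, adjusting over all genes. The fit was also run on simulated arrays with independent noise and added differences. These held no deviant array such as mesenchyme 1, so that run checks the code and not these data.

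The members, gene lists and settings were chosen with earlier results of these data known. Named were all 10 members, pathway genes past the threshold in either fit, 7 others fixed by name, and up to 4 called markers per list. Dtx2, Dtx3, Dtx4, Hes6, Adam10, Rfng, Dlk1, Rgs5 and Sox10 lie outside this rule and were named after their values had been seen. So were Esam, Sox18, Twist1, Dcn, Hbb-y, Hba-x, Slc4a1, Alas2 and the 4 endothelial markers lowest on mesenchyme 1. The markers were of epithelium, mesenchyme, endothelium, mural cells, neurons, glia, leukocytes, erythroid cells and other organs. The promoter motifs were chosen after the values had been seen. Alternatives were other offsets, normalizations, filters and probe set rules, no variance trend, a block on the array number, and leaving out single arrays. Coordinates are those of the RefSeq promoter table, since the array table names no build.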

Additional observations from a re-analysis of the deposited data

How the results depend on the processing

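Leaving out 1 array at a time gave 142 to 1975 genes past the threshold in place of 820, the fewest without epithelium 1 and the most without mesenchyme 1, 1 to 5 of the 10 Notch genes in place of 4 and 1 to 3 of the other pathway genes in place of 2. Without the filter 2 of the 10 and 1 pathway gene passed, and with median centring 1 pathway gene did. The filter at the 60th percentile left Notch4 untested. The arrays that share a number were not shown to be paired: only numbers 1 and 2 occur in both layers, with correlations of their deviations from the layer means of -0.05 and -0.02. With the number as a replicate block, 0 genes, 0 of the 10 and 0 pathway genes passed in limma, where 1460, 3 and 3 had an unadjusted p under 0.05. That fit has few residual degrees of freedom by construction. Of 157 alternative values of the 10 genes, 23 lost the call, 2 gained it and 8 turned direction. The other 124 kept direction and stayed called or not called as in the main fit. They include values of the 6 genes that had no call to lose. Other filters and no variance trend leave a difference unchanged by construction, so its direction could not turn there. Notch2 turned to 0.058 with median centring, 0.048 with the replicate block and 0.45 on its dim probe set, and ran from -0.16 to 0.04 with 1 array left out (0.035 without epithelium 5, 0.003 without mesenchyme 1). Notch4 turned to 0.65 on another of its probe sets. Jag1 ran from -0.164 to 0.336 with 1 array left out, below 0 without epithelium 2 (-0.124) or mesenchyme 1. The cause of these changes was not tested. The median over all genes was 0.06 without normalization and 0.23 with median centring. Signal over background limits Notch4 and Mfng, whose epithelial values are dim; their differences were -3.26 and -4.14 with an offset of 1, and -2.21 and -3.24 with an offset of 64.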

Other observations

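Other cell types whose markers were read give the setting of these values. Glial markers summed to 1729 to 2424 in epithelium and 24746 to 32847 in mesenchyme, with 2 of 3 called, Ednrb (-3.85) and Fabp7 (-5.09). Ednrb made up most of that sum, at 19566 to 30532 in mesenchyme. Sox10, a lineage factor of glia and neural crest, read 134 to 257 in epithelium and 169.9 to 199 in mesenchyme, with overlapping layers (0.14, adjusted p = 0.886 in limma). Leukocyte markers summed to 2404 to 5664 and 6862 to 37500, the highest on mesenchyme 1, with 0 of 4 called in limma (2 with an unadjusted p under 0.05) and 1, Csf1r, without mesenchyme 1. Erythroid markers summed to 11313 to 50617 and 17203 to 58562, with 0 of 4 called in either limma fit (1 and 2 with an unadjusted p under 0.05). Hbb-y made up most of that sum on every array except mesenchyme 1. On mesenchyme 1, Hbb-y (2301) and Hba-x (13.4) were at their lowest, while Slc4a1 (9469) and Alas2 (5420) were at their highest. Markers of other organs had 0 of 7 called in limma (0 with an unadjusted p under 0.05) and 1 of 5 without mesenchyme 1, Krt10.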
